A study of Mus musculus with 6 samples.

Results

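Agpat1 and 9 further genes of glycerolipid synthesis were described across 3 MSR1 KO and 3 MSR1 WT libraries of macrophage RNA. Agpat1 was chosen by its counts in this same contrast, where it was among the strongest falls in the MSR1 KO libraries, so its values are a description and carry no test. The other genes, Agpat2, Agpat3, Agpat4, Agpat5, Gpam, Lpin1, Lpin2, Dgat1 and Dgat2, were taken for their place in the pathway. The 10 genes are among 52550 in the table, and all 10 had enough counts to be among the 16402 genes tested. Both groups were macrophages grown from C57BL/6 bone marrow, after lysis of red cells, in RPMI-1640 with 25 ng/ml M-CSF for 7 days. Both were then kept with bone marrow mesenchymal stromal cells (BMSCs) across a transwell membrane for 48 h before RNA was taken. The groups differ in genotype, the MSR1 KO cells coming from knockout mice for macrophage scavenger receptor 1 and the MSR1 WT cells from mice that carry it. No group without BMSCs was analysed here, and the labels do not say which libraries share an animal or a culture. P-values therefore measure the spread between these libraries.

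Glycerolipid synthesis builds membrane phospholipids and storage fat on a glycerol backbone. In the glycerol-3-phosphate pathway, GPAT enzymes such as the one encoded by Gpam add a fatty acid to glycerol-3-phosphate and make lysophosphatidic acid, and AGPAT enzymes add another to make phosphatidic acid. Lipins remove the phosphate to give diacylglycerol, and DGAT enzymes add the last fatty acid to give triacylglycerol, which macrophages store in lipid droplets.

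Total counts per library ranged from 36143518 to 47417448. Msr1, the targeted gene, had 2118, 1825 and 2000 counts across MSR1 KO libraries against 7543, 9163 and 9219 across MSR1 WT libraries, so reads on it remained in the MSR1 KO libraries but every one of them lay lower. All 10 macrophage markers were detected well enough to be tested, and their summed level was 23437 to 24439 CPM (counts scaled to the effective library size) in MSR1 KO and 23522 to 26051 in MSR1 WT libraries. Of all tested genes, 2.66% were lower and 2.25% were higher in the MSR1 KO libraries at an adjusted p under 0.05 (edgeR's quasi-likelihood test, adjusted after Benjamini and Hochberg across the 16402 tested). In bulk RNA, fewer cells of a type and less RNA per cell cannot be told apart.

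Agpat1 encodes an enzyme of the endoplasmic reticulum that turns lysophosphatidic acid into phosphatidic acid. The gene (ENSMUSG00000034254.17) lies on the plus strand of chromosome 17 from 34604262 to 34613449 (GRCm38), with 8 annotated transcripts. Its level was 49.5, 49.0 and 52.6 CPM in MSR1 KO replicates 1, 2 and 3 and 95.5, 90.8 and 94.0 CPM in MSR1 WT replicates 1, 2 and 3. These rest on 1779, 1950 and 2445 counts against 3937, 4309 and 3883. The MSR1 KO libraries lay close together and far below every MSR1 WT library. The means were 50.4 ± 1.95 and 93.4 ± 2.39 CPM (SD, n = 3 each), which left 53.9% of the MSR1 WT level. The fitted log2 fold change was -0.89 (standard error 0.071), and with any 1 library left out it stayed between -0.92 and -0.87. The difference came from a moderate change and a small spread. Over rises and falls together, Agpat1 was in place 1278 of 16402 by the size of the log2 fold change and in place 7 by the F statistic of the model. In the latter order it stood between Oas2 (F = 162) and Plac8 (F = 153), with F = 156.

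The promoters of Agpat1 and of Lpin1 are shown because these had the largest differences among the 10 genes described. RefSeq (GRCm38.p6) gives promoter windows for 7 of the 10 genes, and the 250 bases before each start were searched on both strands for the GC box GGGCGG, the CCAAT box CCAAT, the E-box CACGTG, the TATA box TATAAA and the sterol response element TCACNCCAC. Agpat1 has 2 starts in the table, at windows chr17:34605611-34605860 and chr17:34608764-34609013 on the plus strand, and Lpin1 has 1, at chr12:16610967-16611216 on the minus strand. Matches are in capitals, and a match on the other strand appears as its reverse complement.
Agpat1 upstream start: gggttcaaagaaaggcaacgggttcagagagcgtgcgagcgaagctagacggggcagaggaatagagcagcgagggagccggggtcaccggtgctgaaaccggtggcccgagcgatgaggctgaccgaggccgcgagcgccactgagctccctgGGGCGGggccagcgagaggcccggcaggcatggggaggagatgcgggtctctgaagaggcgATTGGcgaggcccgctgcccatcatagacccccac
Agpat1 downstream start: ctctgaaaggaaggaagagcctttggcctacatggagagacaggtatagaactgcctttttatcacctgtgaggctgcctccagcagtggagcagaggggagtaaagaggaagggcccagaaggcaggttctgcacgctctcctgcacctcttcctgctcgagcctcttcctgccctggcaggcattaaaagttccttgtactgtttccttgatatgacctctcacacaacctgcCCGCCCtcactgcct
Lpin1: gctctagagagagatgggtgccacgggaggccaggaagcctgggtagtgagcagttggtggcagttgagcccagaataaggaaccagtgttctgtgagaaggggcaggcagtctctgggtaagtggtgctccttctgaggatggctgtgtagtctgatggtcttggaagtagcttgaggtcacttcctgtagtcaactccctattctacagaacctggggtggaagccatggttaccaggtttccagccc
The window of the upstream Agpat1 start holds 1 GC box and 1 CCAAT box and is 67.6% G or C. That of the downstream start holds 1 GC box and is 54.4% G or C. The Lpin1 window holds none of the 5 motifs and is 54.8% G or C. Of all 32851 windows of this length, 32.7% hold the GC box, 33.8% the CCAAT box, 6.02% the E-box, 12.4% the TATA box and 1.05% the sterol response element, and the median is 52.4% G or C. These are matches of letters in a window, and binding was not measured.

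**Figure D1:**
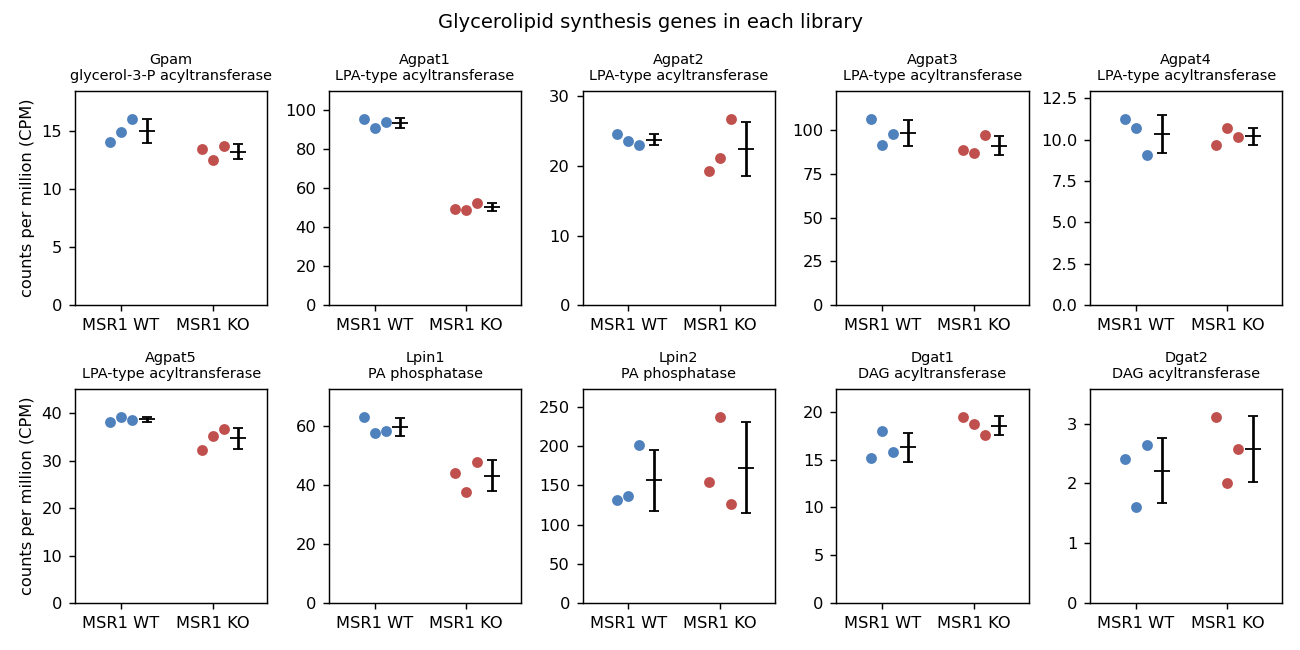
Level of each of the 10 genes in CPM (y axis, from 0) in the 3 MSR1 WT (blue) and 3 MSR1 KO (red) libraries, with the mean and SD of each group in black. Agpat1 is the gene with the widest gap between groups relative to its spread, from 49.0 to 52.6 CPM in MSR1 KO against 90.8 to 95.5 in MSR1 WT, and Lpin2 has the widest spread.

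At the first step of the pathway, Gpam encodes the mitochondrial glycerol-3-phosphate acyltransferase (ENSMUSG00000024978.10, chromosome 19 from 55069734 to 55099451, minus strand). MSR1 KO libraries had 13.4, 12.5 and 13.7 CPM of it, and MSR1 WT libraries had 14.0, 14.9 and 16.0 CPM. Each MSR1 KO library was below each MSR1 WT library, by a margin smaller than the SD of either group (0.653 and 1.01 CPM). The log2 fold change was -0.18 (95% interval -0.44 to 0.07, adjusted p = 0.44 by edgeR), and the gene did not pass the test.

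The other 4 AGPAT genes did not pass the test. Agpat2, whose loss in people causes a congenital lack of body fat (ENSMUSG00000026922.13, chromosome 2 from 26593057 to 26604417), was at 19.3, 21.2 and 26.8 CPM in the MSR1 KO and at 24.6, 23.6 and 23.1 CPM in the MSR1 WT libraries. MSR1 KO replicate 3 lay above all MSR1 WT libraries and the other 2 lay below them. Its log2 fold change was -0.08 (95% interval -0.38 to 0.21, adjusted p = 0.79 by edgeR). Agpat3, which encodes an acyltransferase of the endoplasmic reticulum and Golgi (ENSMUSG00000001211.15, chromosome 10 from 78269178 to 78352489), was at 88.7, 87.0 and 97.1 CPM against 106, 91.3 and 97.5 CPM. The groups overlapped, with a log2 fold change of -0.11 (95% interval -0.31 to 0.08, adjusted p = 0.54 by edgeR). Agpat4, a relative of Agpat3 (ENSMUSG00000023827.8, chromosome 17 from 12118704 to 12219645), was at 9.69, 10.7 and 10.2 CPM against 11.3, 10.7 and 9.08 CPM. The 3 MSR1 KO values fell inside the range of the MSR1 WT values, and the log2 fold change was -0.02 (95% interval -0.33 to 0.28, adjusted p = 0.95 by edgeR). Agpat5, whose product is found at mitochondria (ENSMUSG00000031467.10, chromosome 8 from 18846277 to 18891361), was at 32.3, 35.2 and 36.7 CPM against 38.2, 39.3 and 38.6 CPM. Every MSR1 KO library was below every MSR1 WT library, but the log2 fold change was -0.16 (95% interval -0.34 to 0.03, adjusted p = 0.35 by edgeR). None of these 4 intervals reaches the log2 fold change of Agpat1, but Agpat1 was chosen for its fall, so this is a description and no test.

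To compare levels between genes, CPM were divided by the length of each gene's exons in kilobases (RPKM). By mean level per exon length, Agpat1 was the most abundant of the 10 genes in both genotypes. It was at 31.1 ± 0.795 RPKM in MSR1 WT and 16.8 ± 0.651 RPKM in MSR1 KO libraries (SD, n = 3 each). In MSR1 KO replicate 2 Lpin2 stood higher, at 19.4 against 16.3 RPKM. The longest transcript is a smaller part of the exon bases for Lpin2 (5640 of 12233) than for Agpat1 (2190 of 3001). The MSR1 KO order of these genes therefore depends on the length used. The share of Agpat1 in the summed level of the 5 AGPAT genes was 49.1%, 49.9% and 50.8% in the MSR1 WT libraries and 37.9%, 36.5% and 35.3% in the MSR1 KO libraries. Agpat3 came next, with a mean share of 20.2% in MSR1 WT and 25.4% in MSR1 KO, followed by Agpat2 with 17.9% and 22.8%. Agpat4 and Agpat5 each stayed under Agpat2, at 6.15% and 5.76% in MSR1 WT and at 8.23% and 7.01% in MSR1 KO. The summed level of the 5 genes was 46.0 ± 3.30 RPKM in MSR1 KO and 62.3 ± 2.13 RPKM in MSR1 WT (SD, n = 3 each), and this sum holds Agpat1. Without Agpat1 the sum was 27.0, 28.3 and 32.2 RPKM in the MSR1 KO and 32.9, 30.4 and 30.3 RPKM in the MSR1 WT libraries. These groups overlapped, and the log2 difference of -0.10 had p = 0.3 (exact permutation test, two-sided, where 3 libraries against 3 cannot go below 0.1). The mean summed level of the other AGPAT genes was not higher in the MSR1 KO libraries.

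**Figure D2:**
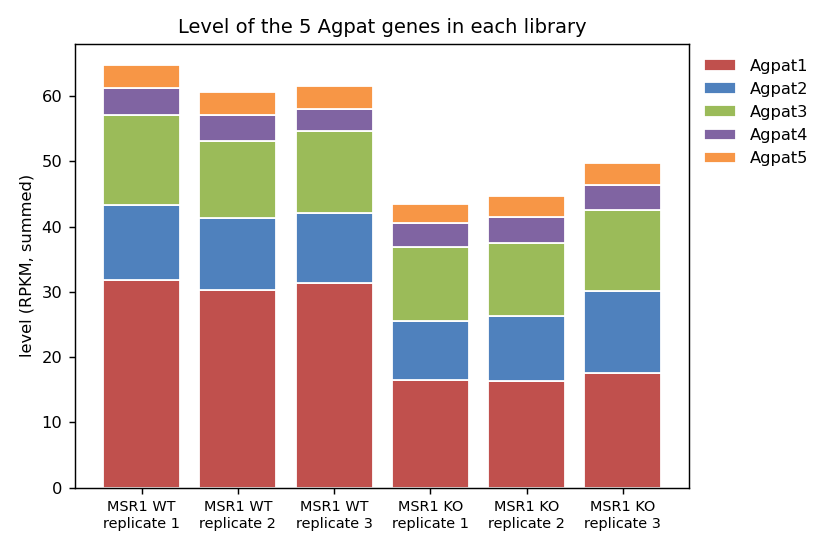
Stacked level of the 5 AGPAT genes in RPKM (y axis, from 0) in each library, with Agpat1 at the base. The Agpat1 segment is 30.3 to 31.8 RPKM in the MSR1 WT and 16.3 to 17.5 RPKM in the MSR1 KO libraries, while the sum of the other segments overlaps between the genotypes.

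Lpin1 was the 1 gene among the 9 others that passed the test. It encodes lipin 1, a phosphatidate phosphatase that also acts in the nucleus as a coactivator of transcription (ENSMUSG00000020593.15, chromosome 12 from 16535669 to 16610966, minus strand). It stood at 44.2, 37.6 and 47.8 CPM in MSR1 KO and at 63.3, 57.5 and 58.5 CPM in MSR1 WT replicates 1, 2 and 3. The counts were 1586, 1497 and 2223 against 2608, 2729 and 2416. All MSR1 KO values lay below all MSR1 WT values. Lpin1 fell to 72.3% of the MSR1 WT level, which is -0.47 on the log2 scale (standard error 0.10, adjusted p = 0.042 by edgeR). The call is a narrow one, since leaving out 1 library gave adjusted p-values of 0.049 to 0.16 and kept it only without MSR1 KO replicate 3. The log2 fold change stayed between -0.54 and -0.38, and adjusted p = 0.0025 by DESeq2's Wald test.

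Lpin2, the lipin whose loss causes an inflammatory disease in people, did not pass the test (ENSMUSG00000024052.17, chromosome 17 from 71182560 to 71249817). It was at 154, 238 and 126 CPM in the MSR1 KO and at 131, 137 and 201 CPM in the MSR1 WT libraries. In each genotype 1 library stood well above the others, MSR1 KO replicate 2 and MSR1 WT replicate 3. The log2 fold change was 0.14 (95% interval -0.42 to 0.70, adjusted p = 0.82 by edgeR), and without MSR1 KO replicate 2 it was -0.16. The level of Lpin2 relative to Lpin1 per length was 2.75, 4.99 and 2.09 in the MSR1 KO and 1.64, 1.88 and 2.72 in the MSR1 WT libraries, so these ranges overlapped.

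At the last step, Dgat1 and Dgat2 encode unrelated enzymes that make triacylglycerol, and neither passed the test. Dgat1 (ENSMUSG00000022555.11, chromosome 15 from 76502015 to 76511951) was at 19.5, 18.7 and 17.5 CPM in the MSR1 KO and at 15.1, 18.0 and 15.8 CPM in the MSR1 WT libraries. The groups overlapped at MSR1 KO replicate 3 and MSR1 WT replicate 2, and the log2 fold change was 0.19 (95% interval -0.06 to 0.44, adjusted p = 0.42 by edgeR). Dgat2 (ENSMUSG00000030747.5, chromosome 7 from 99153658 to 99182719) had few reads, with 112, 80 and 120 counts in MSR1 KO against 99, 76 and 109 in MSR1 WT. The estimate of 0.22 on the log2 scale has a wide 95% interval of -0.43 to 0.86 (adjusted p = 0.75 by edgeR). Dgat1 exceeded Dgat2 in every library, by a ratio of RPKM of 6.31, 9.38 and 6.85 in MSR1 KO and of 6.36, 11.3 and 6.03 in MSR1 WT. The log2 difference of this ratio was -0.03 (exact permutation test, two-sided p = 0.9, smallest possible 0.1).

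**Figure D3:**
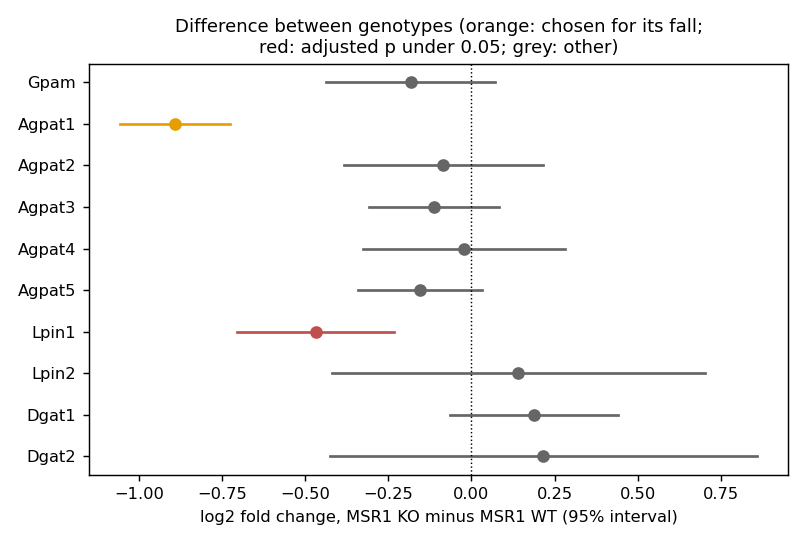
Fitted log2 fold change of each gene (x axis, MSR1 KO minus MSR1 WT) with its 95% interval, in the order of the pathway. Agpat1 (orange) was chosen for its fall, Lpin1 (red, -0.47) had an adjusted p under 0.05, and the intervals of the 8 grey genes include 0.

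Among the 9 genes other than Agpat1, 1 was lower and 0 were higher at an adjusted p under 0.05 (11.1%), where 4.91% of all tested genes were called in either direction. By an unadjusted p under 0.05 the count was also 1 (18.9% of all tested genes), and DESeq2 called 1 lower and 0 higher (5.38% and 4.57% of the genes it gave an adjusted p). Their median log2 fold change was -0.08, with 6 below 0 and 3 above, beside a median of -0.0023 over all tested genes. Under the study's definition, a fold change above 1.5 with an unadjusted p under 0.05, none of the 9 qualified (8.64% of tested genes did, 5.05% as lower and 3.59% as higher), as the change of Lpin1 was 1.38-fold. Agpat5, Gpam and Lpin1 had all MSR1 KO libraries below all MSR1 WT libraries, as 13.4% of tested genes did. These shares describe the list and are no test of it.

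The order of levels per length differed little between the genotypes. In MSR1 WT libraries Agpat1 was followed by Lpin2 (12.8 ± 3.18 RPKM), Agpat3 (12.6 ± 0.969), Agpat2 (11.2 ± 0.376), Lpin1 (6.18), Dgat1 (5.33), Agpat4 (3.83), Agpat5 (3.59), Gpam (2.25) and Dgat2 (0.718 RPKM). The neighbours Lpin2 and Agpat3, and Agpat4 and Agpat5, overlapped between libraries there. In MSR1 KO libraries the mean of Agpat1, 16.8 RPKM, was close to that of Lpin2 at 14.1 ± 4.74 RPKM (SD, n = 3), and the libraries of these genes overlapped. Dgat1 at 6.08 RPKM stood above Lpin1 at 4.47 RPKM in MSR1 KO, the reverse of their order in MSR1 WT.

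The rest of the pathway was covered by 12 lists of 137 genes, of which 110 were tested and 8 were at 0 counts in every library. Of the 110, 3 fell and 1 rose (3.64%, against 4.91% of all tested genes), and the median log2 fold change was 0.0028, with 54 genes below 0 and 56 above. Plpp3, which encodes a cell surface enzyme that removes the phosphate from lysophosphatidic acid and phosphatidic acid, had 234, 193 and 315 counts in MSR1 KO against 462, 529 and 669 in MSR1 WT. It fell by 1.09 on the log2 scale (standard error 0.20, adjusted p = 0.027 by edgeR). Plin4, a lipid droplet coat protein, had 38, 37 and 24 counts against 105, 122 and 145 and fell by 1.79 (standard error 0.33, adjusted p = 0.027 by edgeR). Dagla, a lipase that makes the endocannabinoid 2-arachidonoylglycerol from diacylglycerol, had 207, 233 and 264 counts against 380, 465 and 362 and fell by 0.68 (standard error 0.13, adjusted p = 0.028 by edgeR). Lipe, hormone-sensitive lipase, was the gene that rose, from 32.5 ± 1.08 CPM in MSR1 WT to 47.5 ± 6.60 CPM in MSR1 KO (SD, n = 3 each), or by 0.55 on the log2 scale (adjusted p = 0.033 by edgeR). Of the 110 genes, 13 had all MSR1 KO libraries below all MSR1 WT libraries and 19 had them all above. Of all tested genes, 13.4% and 12.1% did. The 4 called genes are among these, but they were picked by the test, so this adds no support to their calls. Most left-out fits lost these calls. The call of Plin4 was lost in 6 of 6 cases, and those of Plpp3, Dagla and Lipe in 5 of 6, while the log2 fold changes moved less, from -1.99 to -1.53 for Plin4, -1.18 to -0.89 for Plpp3, -0.72 to -0.64 for Dagla and 0.48 to 0.66 for Lipe.

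By list, the other GPATs and enzymes of glycerol-3-phosphate supply had 9 tested genes, a median of -0.004 and no call, and Gnpat was the most abundant per length (14.9 RPKM in MSR1 KO, 15.3 in MSR1 WT). The other lysophospholipid acyltransferases had 9 tested genes and a median of -0.15 with no call, led in level by Lpcat2 at 36.4 and 31.1 RPKM (log2 fold change 0.22, adjusted p = 0.20 by edgeR). The other phosphatidate phosphatases, 8 genes with a median of -0.06, held Plpp3 as the 1 that fell, and their most abundant gene was Ctdnep1, which takes phosphate off the lipins themselves (47.9 and 44.1 RPKM, adjusted p = 0.51 by edgeR). These lists cover other acyltransferases, glycerol-3-phosphate supply and phosphatases. The next lists cover other branches and reactions. The other acylglycerol and sterol acyltransferases had 4 tested genes and a median of 0.36, with Soat1 highest in level (log2 fold change -0.13). The CDP-diacylglycerol branch had 8 with a median of 0.20 (Cdipt, -0.03), the choline and ethanolamine branch 13 with a median of 0.05, the acyl-CoA synthetases 9 with a median of 0.05 (Acsl5, 0.19) and the diacylglycerol kinases 8 with a median of -0.04 (Dgkz, 0.19). None of these 5 lists had a call, and Cept1, which makes phosphatidylcholine and phosphatidylethanolamine, came near it at 0.42 (adjusted p = 0.056 by edgeR). In all, 9 lists had no gene at an adjusted p under 0.05 by edgeR. Of their 79 tested genes, 18 had an unadjusted p under 0.05, where 18.9% of all tested genes did, and DESeq2 called 0 lower and 3 higher, where it called 5.38% and 4.57% of genes.

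**Figure D4:**
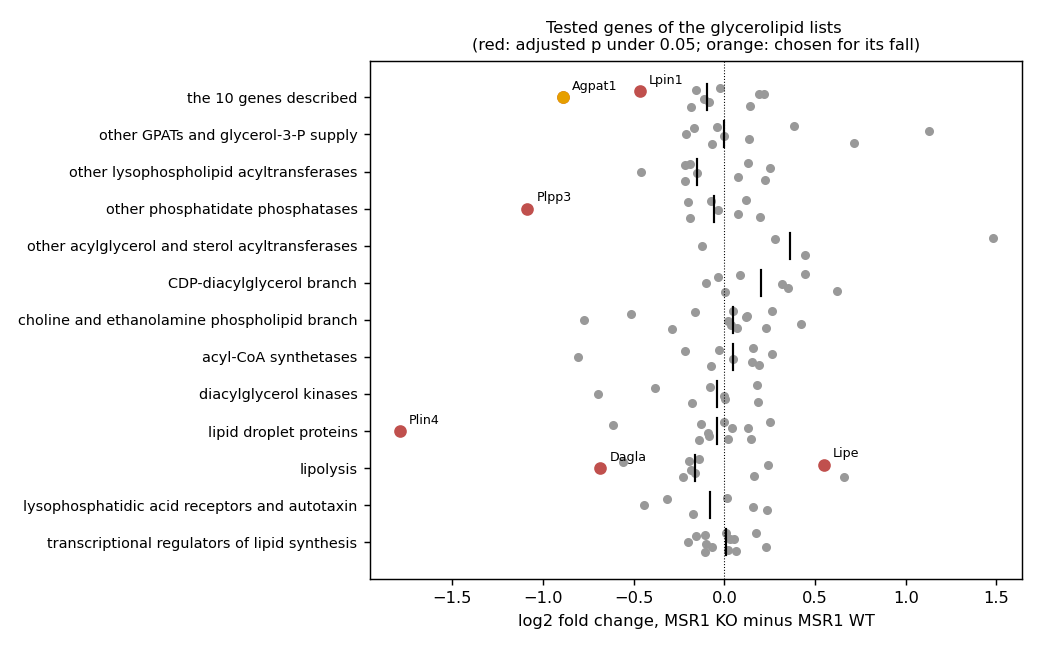
Log2 fold change (x axis, MSR1 KO minus MSR1 WT) of every tested gene of the 12 lists and of the 10 genes described, 1 point a gene and 1 row a list, with the list's median as a black bar. Agpat1 (orange) was chosen for its fall, the red points had an adjusted p under 0.05 (Lpin1, Plpp3, Plin4, Dagla and Lipe), and the medians lie between -0.16 and 0.36.

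Few genes of the lipid droplet and lipolysis lists passed the test, and most left-out fits lost their calls, as given above. Of all tested genes, 4.91% were called. The lipid droplet list had 12 tested genes, a median of -0.04 and 1 call (8.33%), Plin4. Plin2, the main droplet coat protein of macrophages, was at 298 RPKM in both genotypes, a log2 fold change of -0.0005 (95% interval -0.28 to 0.28). The lipolysis list had 11 tested genes, a median of -0.16 and 2 calls (18.2%), Dagla lower and Lipe higher. Its most abundant gene, Lipa, the lysosomal acid lipase, was at 294 and 324 RPKM (log2 fold change -0.14, adjusted p = 0.24 by edgeR). The receptors for lysophosphatidic acid with autotaxin had 6 tested genes, a median of -0.08 and no call, with Lpar6 highest in level (0.23, adjusted p = 0.11 by edgeR). The transcriptional regulators of lipid synthesis had 13 tested genes, a median of 0.01 and no call, with Cebpa highest in level (-0.07, adjusted p = 0.87 by edgeR).

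Among markers of other cell types, 3 stromal markers passed the test, as did Lipe, which is also listed as an adipocyte marker. Of 13 stromal markers, 3 fell and 0 rose (2.66% and 2.25% of all tested genes did), with a median log2 fold change of -0.31, 9 below 0 and 4 above. DESeq2 called 5 lower and 2 higher. Pdgfra fell from 16.2 to 7.13 CPM (adjusted p = 0.014 by edgeR), Cxcl12 from 177 to 82.1 CPM (adjusted p = 0.031 by edgeR) and Pdgfrb from 39.4 to 21.6 CPM (adjusted p = 0.025 by edgeR). With 1 library left out, the call was lost in 2 fits for Pdgfra, 5 for Cxcl12 and 3 for Pdgfrb. With the replicate number as a block, all of these calls were lost (adjusted p = 0.057, 0.066 and 0.081 by edgeR). The 4 markers above 0 were named after their values were seen. Thy1 was at 2.61 CPM in MSR1 WT and 6.43 CPM in MSR1 KO (log2 fold change 1.31, adjusted p = 0.091 by edgeR). The others were Eng (0.47, adjusted p = 0.12 by edgeR), Nt5e (0.46) and Lum (0.46). The groups of Thy1 and Eng did not overlap, where 12.1% of all tested genes had every MSR1 KO library higher. Of the 13 markers, 5 had every MSR1 KO library lower, where 13.4% of all tested genes did. The summed level of the 13 was 1286 to 1694 CPM in MSR1 KO and 1633 to 2084 CPM in MSR1 WT libraries, ranges that overlap. The most abundant, Col1a2 and Col1a1, were at 516 and 490 CPM in MSR1 KO and at 678 and 586 CPM in MSR1 WT, and no stromal marker was at 0 in all libraries. The part of stromal RNA in the lower values of Agpat1, Lpin1, Plpp3, Plin4 and Dagla was not tested. Of the macrophage markers, 0 fell and 1 rose, Fcgr1, from 256 to 563 CPM (adjusted p = 0.018 by edgeR). Its call was lost in 2 left-out fits and with the replicate number as a block (adjusted p = 0.056 by edgeR). Lyz2 was at 13398 CPM in MSR1 KO and 14912 in MSR1 WT and Cd68 at 1203 and 1282. Of 8 adipocyte markers, Lipe alone had enough counts to be tested. Cfd, Lep, Cidec and Pck1 were at 0 counts in every library, and Adipoq had 0, 0 and 8 counts in MSR1 KO against 0, 4 and 8 in MSR1 WT. All 8 neutrophil markers were tested, with a median of 0.38, 0 below 0 and 8 above, and no call. Their summed level, mostly S100a9 and Ngp, was 636 to 1039 CPM in MSR1 KO and 419 to 799 in MSR1 WT. Of 8 lymphocyte markers 3 were tested, all 3 above 0 and with no call. The list, led by Cd79b and Nkg7, summed to 29.7 to 36.7 CPM against 21.0 to 26.4 CPM.

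None of the tested genes around Agpat1 passed the test. Within 20 kb lie 10 annotated genes, of which 9 were tested. Of these, 0 had an adjusted p under 0.05 by edgeR, where 4.91% of all tested genes did. An unadjusted p under 0.05 was found for 2, where 18.9% of all tested genes had one. DESeq2 called 1, where it called 5.38% of genes lower and 4.57% higher. The 9 genes are too few for these counts to set the locus apart. Of the 9, 7 had a log2 fold change above 0, where 8273 of all 16402 tested genes lay below 0. Gpsm3 was at 0.33 (adjusted p = 0.074 by edgeR) and Ppt2 at 0.33 (adjusted p = 0.13 by edgeR). Notch4 was at 0.57, Ager at 0.60, Prrt1 at 0.41 and Pbx2 at 0.09, while Rnf5, the nearest gene upstream, was at -0.05 and Gm20463 at -0.02. Gm20460 had too few counts to be tested. Egfl8, on the opposite strand, shares 101 of the 3001 exon bases of Agpat1 (3.37%). Egfl8 had 109, 96 and 103 counts in MSR1 KO against 63, 121 and 77 in MSR1 WT, far fewer than Agpat1. The strand setting of the counting is not given in the sources used here, so reads of such pairs cannot be told apart. The same holds for Agpat5, of whose 10783 exon bases Gm35934 shares 2043 (18.9%), with 21, 12 and 15 counts against 30, 12 and 28, for Agpat2, of whose exon bases Egfl7 shares 64, and for Agpat3, of whose exon bases Gm40709 shares 16.

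**Figure D5:**
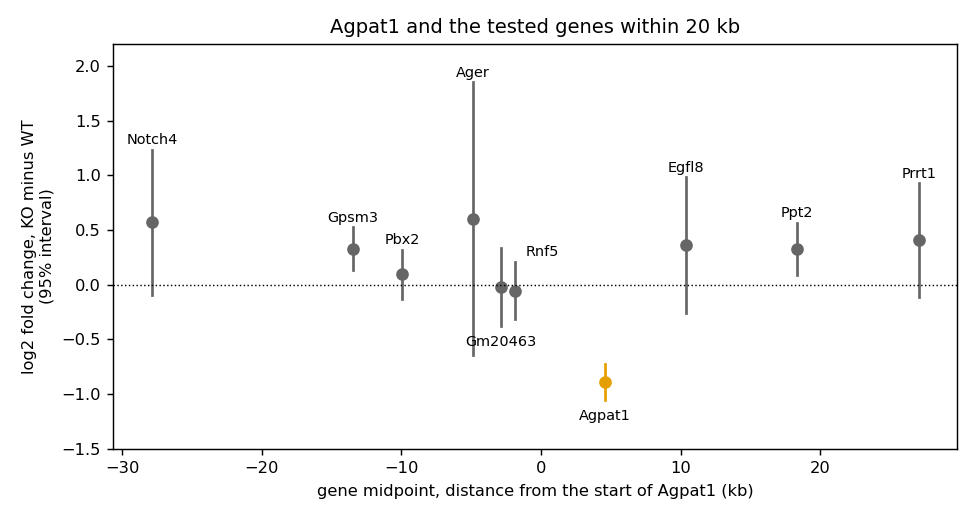
Log2 fold change with 95% interval (y axis, MSR1 KO minus MSR1 WT) of Agpat1 (orange) and the 9 tested genes within 20 kb (grey), by the distance of each gene's midpoint from the start of Agpat1 in kb (x axis). Agpat1 lies at -0.89 and its neighbours lie between -0.05 and 0.60.

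Over the 6 libraries, the genes whose log2 CPM followed Agpat1 most closely were Ctps (Pearson's r = 0.998), Pnma5 (0.997), Mast2 (0.997), Hpgd (0.996) and Sorbs2 (0.996). The 6 points are 2 genotypes of 3 libraries each, so these values mostly restate which genes were lower in every MSR1 KO library with a small spread, and they are given as a description.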

How the data were processed

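Counts from mRNA sequencing of 3 MSR1 KO and 3 MSR1 WT macrophage samples were used. The deposited table holds raw counts per gene and library made by the authors, who did not normalize or pool them. Its signal columns (each count over a library's size factor), together with the authors' log2 fold changes and the authors' p-values were not used. The submitters' processing notes name fastp 0.17.1, HISAT2 2.1.0, DESeq2 1.18.1 and R 3.4.3, whereas the methods of the paper name TopHat and FPKM. The deposited values are counts, so a count model was used. The program that counted reads, its handling of strand and the build used are not given in the sources used here. Positions are those of GRCm38 (GENCODE vM21), whose exon lengths were used for RPKM, since the length column of the table is the span of the gene.

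In edgeR 4.0.16 (R 4.3.3), low counts were removed by filterByExpr, TMM factors were set and the quasi-likelihood F test (glmQLFit, glmQLFTest) was run, after a trial on simulated counts. Benjamini-Hochberg adjustment took in all 16402 tested genes. A standard error is the absolute log2 fold change divided by the root of its F. Symbols that a spreadsheet had turned into dates numbered 27, of which 26 were restored, and for 89 shared symbols the row with the most counts was kept. No value column was left unmapped and no row lacked a gene name. Libraries of a genotype differed by more than sampling noise. The limit behind a count of 0 was set at 3 counts (0.0632 to 0.0835 CPM) and covers counting error only. Single ratios and sums were compared by exact permutation tests over libraries.

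The genes and lists were chosen with earlier results of these data known. Named genes were the 10 members, Msr1, genes called in a list (at most 4 a list, 3 for markers) with the highest in level (2 for markers), the 5 genes most correlated with Agpat1, and genes near Agpat1 or sharing exon bases with a member. Oas2 and Plac8 fall outside this rule and were named after their values were seen. The alternatives were DESeq2 1.42.0, edgeR with the size factors of DESeq2, scaling by library size only, the longest transcript as length, a block for the replicate number, a minimum of 10 counts throughout, no filter and each library left out.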

Additional observations from a re-analysis of the deposited data

How the results depend on the processing

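The log2 fold change of Agpat1 stayed between -0.92 and -0.87 under all alternatives run. Counts of calls moved with the method. Over all genes, the 436 lower and 369 higher calls became 848 and 720 with DESeq2, 288 and 237 with no filter, and 53 to 372 and 18 to 407 with 1 library left out, lowest without MSR1 WT replicate 1. Agpat1 was chosen on this contrast, so its calls are not counted here. Of the other 9 genes described, Lpin1 was called lower. Its call was lost with no filter and in 5 fits with 1 library left out, so that none of the 9 genes was then called. Of the pathway genes, the 3 lower and 1 higher calls became 5 higher with DESeq2, 0 higher with no filter, 2 higher with at least 10 counts in every library, and 0 to 2 lower and 0 to 2 higher with 1 library left out.

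The replicate numbers did not pair the libraries, since the correlations of same-numbered deviations were -0.026, 0.019 and -0.0048. With the number as a block, 78 lower and 59 higher genes were called. None of the 9 genes other than Agpat1 was among them, and 0 pathway genes were lower or higher. Lpin1 then had adjusted p = 0.080 by edgeR. Lpin1 also missed the threshold with no filter (adjusted p = 0.059 by edgeR).

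Directions that changed with 1 library left out were those of Agpat2 (-0.23 to 0.02), Agpat4 (-0.11 to 0.040), Lpin2 (-0.16 to 0.36) and the Dgat1 to Dgat2 ratio (-0.20 to 0.26), none of which passed a test. The causes of these shifts were not tested. No scaling moved the median of all genes by over 0.1. Dgat2 had the fewest reads of the 10 genes, with 76 to 120 counts a library. Alternatives meant for FPKM had no use here, as the table holds counts.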

Other observations

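Pcyt1a, which encodes the enzyme that sets the pace of phosphatidylcholine synthesis, was chosen after its values were seen, because 1 library decided its call. It had 161, 65.5 and 59.7 CPM in MSR1 KO replicates 1, 2 and 3 and 165, 158 and 166 CPM in the MSR1 WT libraries. MSR1 KO replicate 1 lay inside the MSR1 WT range and the other 2 MSR1 KO libraries lay far below it. The log2 fold change was -0.78 (adjusted p = 0.26 by edgeR), and without MSR1 KO replicate 1 it was -1.37 (adjusted p = 0.0042 by edgeR). Under the other alternatives the adjusted p ranged from 0.17 to 0.47. Agpat1, in the same 3 MSR1 KO libraries, was at 49.5, 49.0 and 52.6 CPM and did not set replicate 1 apart.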
